A study of Arabidopsis thaliana with 18 samples.

Results

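GSTU25 (AT1G17180) and GSTU26 (AT1G17190) are adjacent genes on chromosome 1 of Arabidopsis thaliana, with 0 annotated genes between them in the RefSeq gene order, and both encode glutathione transferases of the tau class. Each is represented by 1 probe set of the ATH1 array, and they are 2 of the 13286 genes that could be named on its 22810 probe sets. The pair was chosen by its signals, since its members responded in opposite directions to the compounds when set against acetone, so their differences from acetone are given as a description and are not tested. Both were among the 15261 probe sets that passed the filter on low signals, a signal above the 40th percentile of the array in at least 3 arrays. GSTU25 passed it through the compound-treated groups, since 0 of its 3 signals were above that percentile in either acetone group.

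The study treated root cultures of the wild type ecotype Col-0 with fenclorim, a dichlorinated phenylpyrimidine that protects rice from herbicide injury, with a compound given only by the code name CMP, or with acetone, the solvent. All cultures were kept in darkness at 25 °C in Gamborg's B5 medium and were 14 days old when used. RNA was taken after 4 h and 24 h, which gives 6 groups (acetone, fenclorim and CMP at either time) with 3 arrays each, 18 in all. No dose is given for either compound, and the labels do not say whether replicates were separate cultures, so the spread between arrays may be technical. Values are MAS5 signals, a measure of probe brightness with nearly the same trimmed mean on every array, and the number of arrays limits the precision.

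Tau class enzymes are specific to plants. They join glutathione, a sulfur-containing peptide, to electrophilic compounds such as herbicides and reactive oxygenated lipids, and the conjugates are moved into the vacuole for further breakdown. Their genes often lie in tandem clusters and are known as targets of safeners, of other xenobiotics and of electrophilic lipids. GSTU25 is known for conjugating the explosive trinitrotoluene. No promoter or protein sequence of the pair was used here.

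Some arrays stood apart from their groups. On the second principal component, which held 17.3% of the variance, fenclorim 24 h replicate 2 lay at -4.21 and the other arrays of its group at -72.7 and -75.5. Fenclorim 4 h replicate 3 lay at -52.4, below both others of its group, of which the higher lay at -1.66. CMP 4 h replicate 2 lay at -15.9, and the others of its group lay at 30.4 and 41.2. Both fenclorim arrays lay nearer on this component to an array of the other fenclorim time than to any of their own group, and the labels were kept as given. The GSTU25 signal of the array labelled 4 h was 1331, beside 1088 and 935 in its group, and that of the array labelled 24 h was 252, beside 92.6 and 158. Each was thus closer to its own labelled group in GSTU25. GSTU26 went the other way. Its signal in the array labelled 4 h was 71.8, beside 12.8 and 10.8 in its group. In the array labelled 24 h it was 14.1, beside 42.9 and 55.0 in its group. Each was thus nearest to an array of the other fenclorim time in GSTU26. The labels themselves were not tested. Controls for labelling, 27 probe sets for spiked poly-A RNA, had a mean log2 signal of 6.77 in the CMP array that stood apart, where its group otherwise had 5.34 and 5.54. For fenclorim 4 h replicate 3 the mean was 6.50 (others 6.23 and 5.94) and for fenclorim 24 h replicate 2 it was 6.40 (others 6.95 and 7.11). Fits without these 3 arrays were made for the pair and for the counts of called probe sets. Differences of the pair whose sign or call changed are given with and without them. Values of all other genes include these arrays. Acetone 4 h replicate 1 lay at 18.0 on the second component, and the others of its group at -19.0 and -13.4. The acetone 24 h arrays lay at 12.9, 18.3 and 20.5, so it was nearer to these. It was not one of the 3 arrays and was left out only in fits that drop a single array. The label of root tissue could be checked with little: 2 of 15 root markers and 0 of 8 green tissue markers had a named probe set. EXPA18, an expansin of root hair cells, had signals between 0.856 and 67.5.

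GSTU25 was at a low signal in acetone, at a high one after 4 h of either compound, and between these after 24 h. In acetone its signal was 3.62, 4.29 and 19.7 at 4 h and 17.5, 13.4 and 5.02 at 24 h (replicates 1 to 3 here and below). These values lay between the 18.6th and the 38.4th percentile of their arrays. After 4 h of fenclorim the signal was 1088, 935 and 1331, between the 97.1th and the 98.2th percentile, and after 4 h of CMP it was 721, 1050.0 and 447. Every array at 4 h of a compound lay above every acetone array. Fenclorim arrays had signals of 92.6, 252 and 158 after 24 h, and CMP arrays of 38.0, 37.7 and 24.3. The 24 h arrays of both compounds also lay above all acetone arrays, and the lowest fenclorim array lay above the highest CMP array.

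On the log2 scale the acetone means of GSTU25 were 2.75 ± 1.34 (SD, n = 3) after 4 h and 3.40 ± 0.95 after 24 h. Fenclorim had means of 10.11 ± 0.26 and 7.27 ± 0.72 at these times, and CMP of 9.44 ± 0.62 and 5.03 ± 0.37. The order of the 6 levels was thus acetone 4 h, acetone 24 h, CMP 24 h, fenclorim 24 h, CMP 4 h and fenclorim 4 h. Neighbours in this order overlapped only for the acetone groups, 0.65 apart, and for CMP and fenclorim at 4 h, 0.67 apart. The other neighbouring groups did not overlap.

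As a description of the contrast that chose the gene, GSTU25 was above acetone by 7.36 ± 0.57 (SE) at 4 h of fenclorim and by 6.69 ± 0.57 at 4 h of CMP. The differences were 3.87 ± 0.57 and 1.63 ± 0.57 at 24 h. Their size rests on acetone signals near the low end of the arrays. With an offset of 16 added to every signal, chosen after these low signals had been seen, they became 5.53 and 4.88 at 4 h and 2.64 and 0.83 at 24 h. Of all tested probe sets, 17% had every fenclorim array above every acetone array at 4 h and 16.6% at 24 h, and 16.3% and 26.3% had this for CMP. Nothing about GSTU25 is read from these shares, since the rule used the same contrasts.

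GSTU26 was at its highest signals in acetone and after 24 h of CMP, and lower in the other 3 groups, with a wide spread between arrays. In acetone its signal was 49.1, 99.3 and 237 at 4 h and 185, 105 and 39.9 at 24 h. After 4 h of fenclorim it was 12.8, 10.8 and 71.8, and after 4 h of CMP 22.2, 24.7 and 22.4. The CMP arrays at 4 h lay below all acetone arrays, whereas fenclorim 4 h replicate 3 lay inside the acetone range. Its signals at 24 h were 42.9, 14.1 and 55.0 after fenclorim and 111, 50.6 and 98.7 after CMP. Fenclorim 24 h overlapped with acetone 24 h, and the CMP 24 h arrays lay within the acetone range.

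At 4 h and 24 h the log2 means of GSTU26 were 6.71 ± 1.14 (SD, n = 3) and 6.52 ± 1.12 for acetone, 4.42 ± 1.51 and 5.01 ± 1.04 for fenclorim, and 4.53 ± 0.09 and 6.36 ± 0.61 for CMP. From the lowest, the order was fenclorim 4 h, CMP 4 h, fenclorim 24 h, CMP 24 h, acetone 24 h and acetone 4 h. All neighbouring groups overlapped. The gap from fenclorim 24 h to CMP 24 h, 1.35, was larger than the SD of either group, and the other gaps, 0.10 to 0.48, were smaller than the larger SD of their groups. The differences from acetone were -2.29 ± 0.72 (SE) and -1.51 ± 0.72 for fenclorim at 4 h and 24 h, and -2.19 ± 0.72 and -0.16 ± 0.72 for CMP. Without the 3 arrays that stood apart, those for fenclorim were -3.16 and -0.92. CMP at 4 h was the only one of these 4 comparisons in which the arrays of the groups did not overlap, as in 32% of all tested probe sets in the same direction. The opposite direction of the pair was the rule that chose it and is no finding here. As a description, the differences from acetone were larger in size at 4 h than at 24 h for both genes and both compounds. At 24 h of CMP the difference of GSTU26 was small beside its error and became 0.11 when arrays were centred on their medians.

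**Figure D1:**
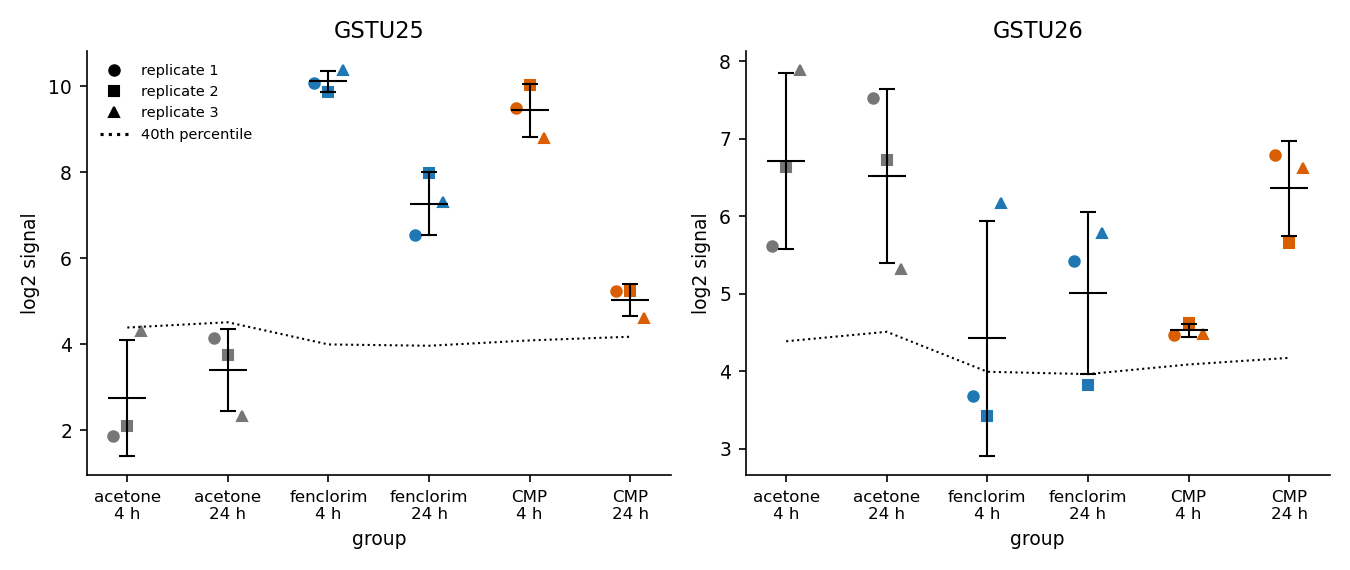
Log2 signal of GSTU25 and GSTU26 (vertical axes) in the 6 groups of 3 arrays (horizontal axes). Symbols are arrays by replicate number, black bars the mean ± SD and the dotted line the mean 40th percentile of the arrays in a group. GSTU25 is below the dotted line in all acetone arrays and highest at 4 h of either compound, while GSTU26 is lowest at 4 h of both compounds.

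In bulk samples, fewer cells of a type and less RNA per cell cannot be told apart. The log2 signal of EXPA18 in acetone was 4.44, 4.73 and 5.72 at 4 h and 6.08, 5.42 and 4.42 at 24 h, the same order of replicates as GSTU26 in both groups. In fenclorim it was 2.64, 3.59 and 3.68 at 4 h and 3.70, -0.22 and 4.05 at 24 h, and in CMP 2.85, 3.43 and 3.40 at 4 h and 4.08, 2.60 and 4.02 at 24 h. Fenclorim 24 h replicate 2 and CMP 24 h replicate 2 were the lowest arrays of their groups for both EXPA18 and GSTU26. EXPA7, another root hair expansin, did not pass the filter, with signals from 0.497 to 29.7. The part of root hair RNA in the values of GSTU26 was not tested.

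The compounds were compared with each other to ask whether either gene separated them, a comparison that does not use acetone. The compound arrays had also entered the choice of the pair, so tests between compounds and between times are not independent of that choice. Both compounds were given for the same times, but their doses are unknown. Over this and the time comparisons 12 tests were made on the pair, and 3 passed, all of GSTU25. For GSTU25 the difference of CMP from fenclorim at 4 h was -0.67 ± 0.57 (95% interval -1.86 to 0.53, adjusted p = 0.565 with limma). At that time 7.33% of tested probe sets were called at an adjusted p under 0.05, and GSTU25 was not among them. A difference was thus not detected at 4 h, and the interval reaches from a clearly lower signal in CMP to a slightly higher one. With a single array left out the difference lay between -0.96 and -0.35, the latter without CMP 4 h replicate 3. Of the probe sets called at 4 h, 3.56% of those tested were higher and 3.77% lower in CMP. At 24 h GSTU25 was lower in CMP than in fenclorim by 4.74-fold (log2 difference -2.24 ± 0.57, 95% interval -3.44 to -1.05, adjusted p = 0.00772), where 30.9% of probe sets were called, 17.2% as higher and 13.7% as lower. With median centring the split was 11.6% higher and 21% lower. All 3 CMP arrays lay below all 3 fenclorim arrays, an order seen for 19.1% of probe sets. Without fenclorim 24 h replicate 2, the highest array of its group, the difference was -1.89 and still passed the test.

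GSTU26 did not pass the test between the compounds at either time. Its difference of CMP from fenclorim was 0.10 ± 0.72 (95% interval -1.43 to 1.63, adjusted p = 0.970) at 4 h and 1.35 ± 0.72 (-0.18 to 2.88, adjusted p = 0.162) at 24 h. These intervals allow changes of more than 2-fold. The signal ranges of the compounds overlapped at both times, although the mean at 24 h was higher in CMP. Leaving out fenclorim 4 h replicate 3 moved the difference at 4 h to 0.97, and leaving out fenclorim 24 h replicate 2 moved that at 24 h to 0.76, neither past the test.

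The time comparisons ask how far each level moved between 4 h and 24 h of one treatment. In acetone no probe set was called by limma (0 of 15261, with 769 at an unadjusted p under 0.05), and the differences were 0.65 ± 0.57 for GSTU25 (95% interval -0.55 to 1.85; 0.20 without acetone 4 h replicate 1 and 1.42 without acetone 4 h replicate 3) and -0.19 ± 0.72 for GSTU26 (-1.72 to 1.34). In fenclorim GSTU25 fell by 2.84 ± 0.57 on the log2 scale (95% interval -4.04 to -1.64, adjusted p = 0.0058), among 9.47% of probe sets called and 4.89% called lower. In CMP it fell by 4.42 ± 0.57 (-5.61 to -3.22, adjusted p = 0.000188), among 11.9% called, 5.34% as higher and 6.51% as lower (3.43% and 8.17% with median centring). The 24 h arrays lay below all 4 h arrays of the same compound in both cases, an order found for 9.9% of probe sets in fenclorim and 16.1% in CMP. The signed change in CMP minus that in fenclorim was -1.58 ± 0.80 (-3.27 to 0.11, adjusted p = 0.250), with 4.91% of probe sets called. The declines were thus not shown to differ.

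GSTU26 had higher means at 24 h than at 4 h of either compound, by 0.58 ± 0.72 in fenclorim (95% interval -0.94 to 2.11, adjusted p = 0.652) and by 1.83 ± 0.72 in CMP (0.30 to 3.36, adjusted p = 0.111). Neither passed the test with the spread shared over all 6 groups. With only the CMP arrays in the fit the adjusted p for CMP was 0.00204 at the same difference, and the 3 CMP arrays at 24 h lay above the 3 at 4 h, as for 21.9% of probe sets. For fenclorim the result turned on the arrays that stood apart: without these 3 arrays the difference was 2.05 (adjusted p = 0.0262). With a single array left out it ranged from 0.09 to 1.45 (adjusted p = 0.158 to 0.971). The difference of the compounds in their change with time was 1.25 ± 1.02 (-0.91 to 3.41, adjusted p = 0.474), and without the 3 arrays -0.17.

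**Figure D2:**
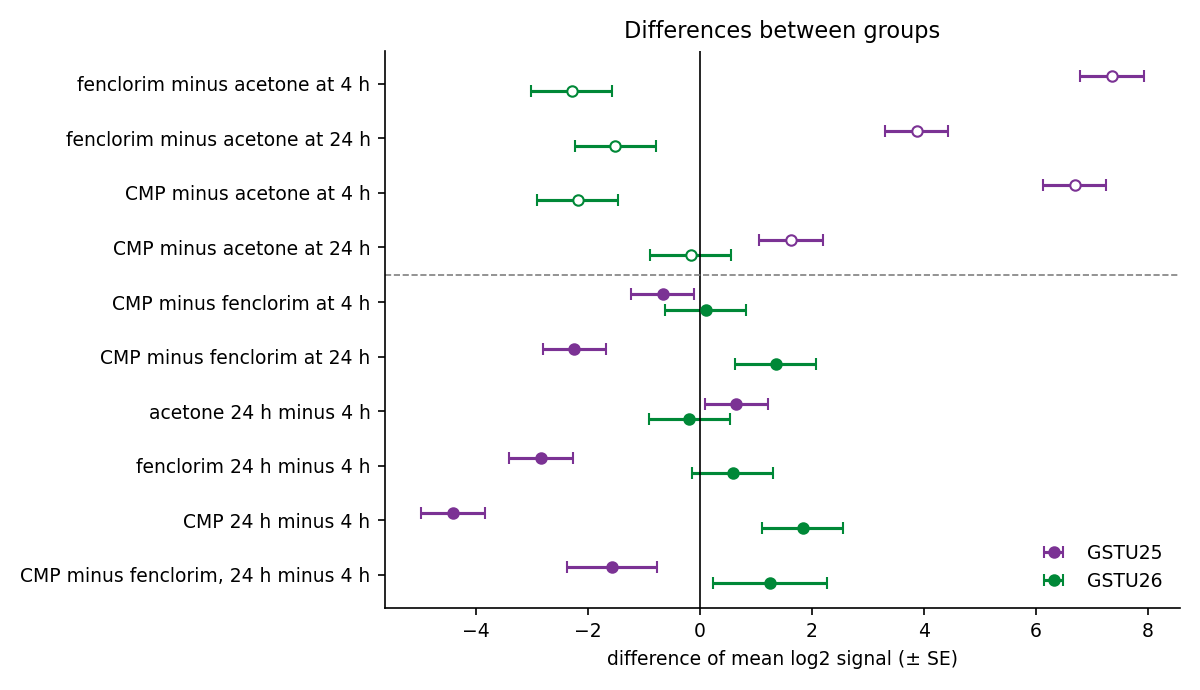
Differences of mean log2 signal ± SE (horizontal axis) of GSTU25 and GSTU26 in 10 contrasts, 3 arrays per group. Open points above the dashed line are the contrasts with acetone that chose the pair and are not tested; filled points are tested. GSTU25 lies at -2.24 between the compounds at 24 h and at -2.84 and -4.42 between the times in fenclorim and CMP, while no filled point of GSTU26 passed the test with all 18 arrays in the fit.

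Although their group means moved in opposite directions, the genes deviated to the same side within acetone and within fenclorim at 4 h. In 6 of 6 acetone arrays GSTU25 and GSTU26 were both above or both below their own group means, and their replicates had the same order in both groups. Acetone 4 h replicate 3 was the highest array of its group for both genes, by 1.55 for GSTU25 and 1.17 for GSTU26 above the log2 group mean, and acetone 24 h replicate 3 was the lowest, at -1.07 and -1.21. In the compound groups they were on the same side in 7 of 12 arrays. These included every array of fenclorim 4 h, where the order of replicates was also the same. Of the 6 groups, 5 had the same highest replicate for both genes and 3 the same lowest. Over the 18 arrays the deviations of the genes from their group means correlated at 0.456. Fenclorim 24 h replicate 2, one of the arrays that stood apart, was the highest of its group for GSTU25 (0.71) and the lowest for GSTU26 (-1.19). Acetone 4 h replicate 3 was also highest, and acetone 24 h replicate 3 lowest, for EXPA18 and for NDB2, GSTU22 and AT1G05575, described below. The same held for the 5 genes most like GSTU26, but not for UGT73B5 and AT5G14730. This order was thus not particular to the pair, and its share over all probe sets was not counted. All acetone signals of GSTU25 were below the 40th percentile of their arrays.

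Of 8131 other named and tested genes, those whose log2 signal was most like GSTU25 over the 18 arrays were NDB2, which oxidises NADH at the inner mitochondrial membrane (Pearson r = 0.983), the tau class gene GSTU22 (0.958) and UGT73B5, a glycosyltransferase (0.946). AT5G14730 (0.937) and AT1G05575 (0.933) followed. These coefficients describe likeness over arrays that fall into groups, so most of their size comes from differences between groups. NDB2 had mean log2 signals of 5.36 and 5.62 in acetone at 4 h and 24 h, 9.16 and 7.43 in fenclorim, and 8.33 and 6.68 in CMP. It thus had the same order of the 6 groups as GSTU25, over a narrower range.

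The genes most like GSTU26 were AT5G26260 (r = 0.958), AT5G47950 (0.920), AT1G14960 (0.919), AT5G23840 (0.915) and AT3G22570 (0.913). Likeness between replicates was described for both sets of genes. For those of GSTU25, the deviations from group means correlated with its own at 0.860 for AT1G05575, 0.817 for NDB2, 0.737 for GSTU22, 0.556 for UGT73B5 and 0.497 for AT5G14730. For the 5 genes most like GSTU26, the deviations from group means correlated with those of GSTU26 at 0.947 to 0.976 over the 18 arrays. Those of EXPA18 correlated with GSTU26 at 0.722. The genes were picked for their likeness over the same arrays, so these values are a description. AT5G26260 had log2 signals of 7.33, 8.59 and 9.31 in acetone at 4 h, 8.91, 8.24 and 7.03 in acetone at 24 h, and 6.37, 6.61 and 6.59 in CMP at 4 h. Like GSTU26, it ranged widely over acetone arrays and narrowly over those of CMP at 4 h.

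**Figure D3:**
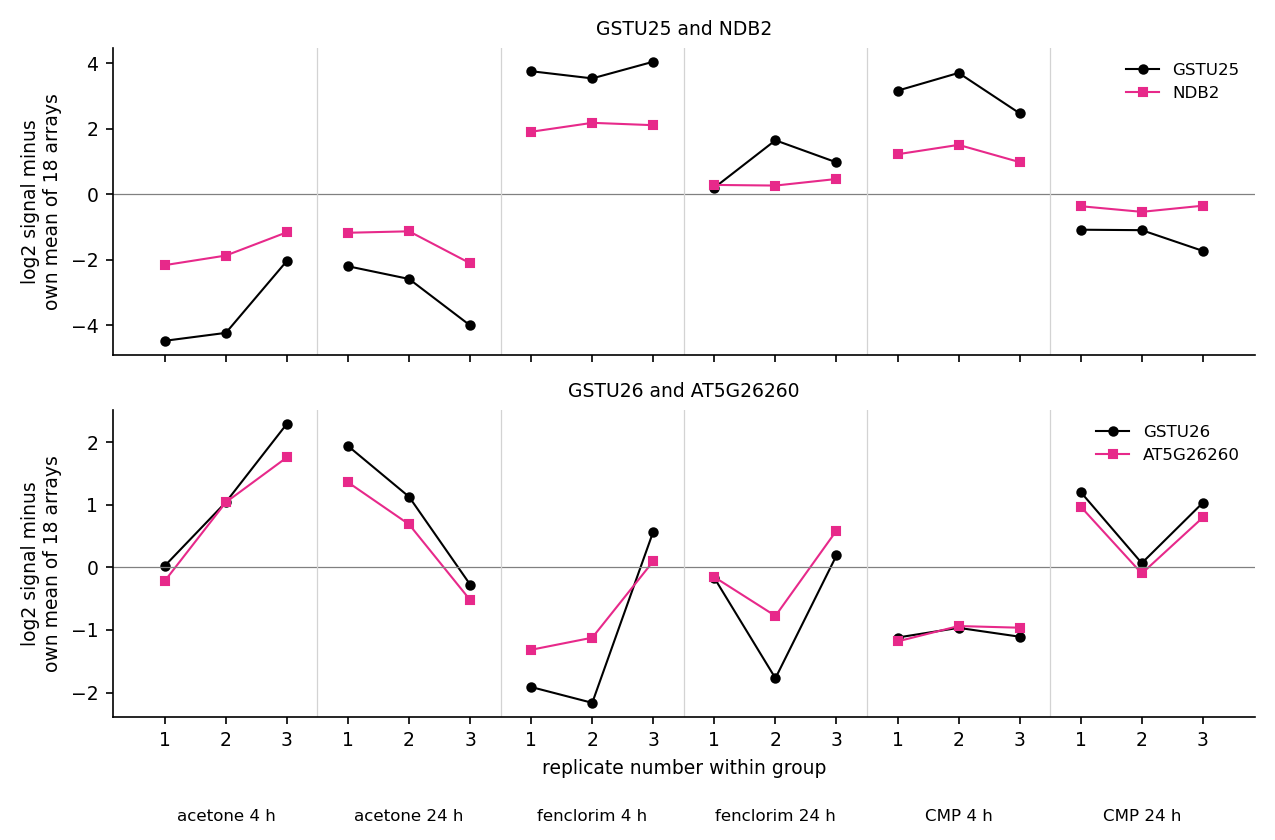
Log2 signal minus each gene's own mean over the 18 arrays (vertical axes) by array, ordered by group and replicate number (horizontal axis); lines join arrays of a group only to guide the eye. The upper panel shows GSTU25 with NDB2 and the lower GSTU26 with AT5G26260, the gene most like each. GSTU26 and AT5G26260 have the same highest array in every group and the same lowest array in all groups but fenclorim 4 h.

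The other tau class genes were set beside the pair. Of 26 loci, 9 had a named probe set and 7 were tested. The fenclorim and CMP comparisons at one time share their acetone arrays, so their values are given side by side. Against acetone at 4 h of fenclorim 2 rose and 3 fell (median -0.31, and -0.23 over all tested probe sets, of which 14.4% were called higher and 25% lower). The split of the calls over all probe sets turned with the scaling, to 22.8% higher and 11.5% lower with median centring and 17.1% and 19.3% with quantile normalization. GSTU22 rose by 3.06 ± 0.41 (adjusted p = 2.4e-05) and GSTU16 by 1.38 ± 0.25. GSTU20, whose protein is known to interact with the jasmonate-conjugating enzyme JAR1, fell by 1.67 ± 0.41, GSTU28 fell by 1.55 ± 0.38 and GSTU18 fell by 1.12 ± 0.25. At 4 h of CMP 2 rose and 3 fell as well (median -0.45, and -0.25 over all, with 13.8% called higher and 23.3% lower, or 19.7% and 10.6% with median centring). GSTU22 was at 3.16 ± 0.41, GSTU16 at 1.37 ± 0.25, GSTU20 at -1.95 ± 0.41, GSTU28 at -1.28 ± 0.38 and GSTU27 at -1.07 ± 0.30. Rises and falls at 4 h were thus also called in single tau class genes outside the adjacent pair. Whether these counts differ from the shares over all probe sets was not tested, and nothing about the class is read from them. The fall of GSTU28 in CMP did not pass the test after either other scaling.

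At 24 h of fenclorim 2 tau class genes were higher and 3 lower than in acetone (median -0.33, and -0.24 over all, with 14.2% called higher and 27.7% lower). With median centring 31.4% of all probe sets were called higher and 10.6% lower, and with quantile normalization 18.5% and 18%. GSTU21 was at 3.93 ± 1.27 (adjusted p = 0.0214) and GSTU22 at 1.77 ± 0.41, and GSTU28, GSTU20 and GSTU18 were at -1.43 ± 0.38, -1.13 ± 0.41 and -0.94 ± 0.25. The 3 lower calls were lost when arrays were centred on their medians, which gave 3 higher and 0 lower. Quantile normalization gave 3 higher and 2 lower. At 24 h of CMP 0 were higher and 2 lower (median -0.33, and -0.13 over all, with 17.3% and 25.7% called, or 25.8% and 16.2% with median centring), GSTU20 at -2.35 ± 0.41 and GSTU18 at -0.75 ± 0.25. The call of GSTU18 was lost after either other scaling, and median centring called GSTU16 higher. The medians of the class at 4 h and 24 h of fenclorim turned to 0.03 and 0.16 with median centring.

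Between the compounds, 0 of the 7 passed the test at 4 h, where 7.33% of all probe sets did. At 24 h 0 were higher in CMP and 2 were lower, beside 17.2% and 13.7% of all probe sets, GSTU22 at -1.41 ± 0.41 (adjusted p = 0.0176) and GSTU20 at -1.21 ± 0.41 (adjusted p = 0.0359). GSTU22 was thus, like GSTU25, lower in CMP than in fenclorim at 24 h, with a log2 difference of 0.10 ± 0.41 at 4 h that did not pass the test. GSTU20, unlike GSTU22, was below acetone under both compounds at both times. Over time, 0 of the 7 passed the test in fenclorim, where 9.47% of all probe sets did. In CMP, where 11.9% did, GSTU22 fell by 2.22 ± 0.41 (adjusted p = 0.00241), as GSTU25 did, and GSTU27 rose by 1.09 ± 0.30 (adjusted p = 0.0269).

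**Figure D4:**
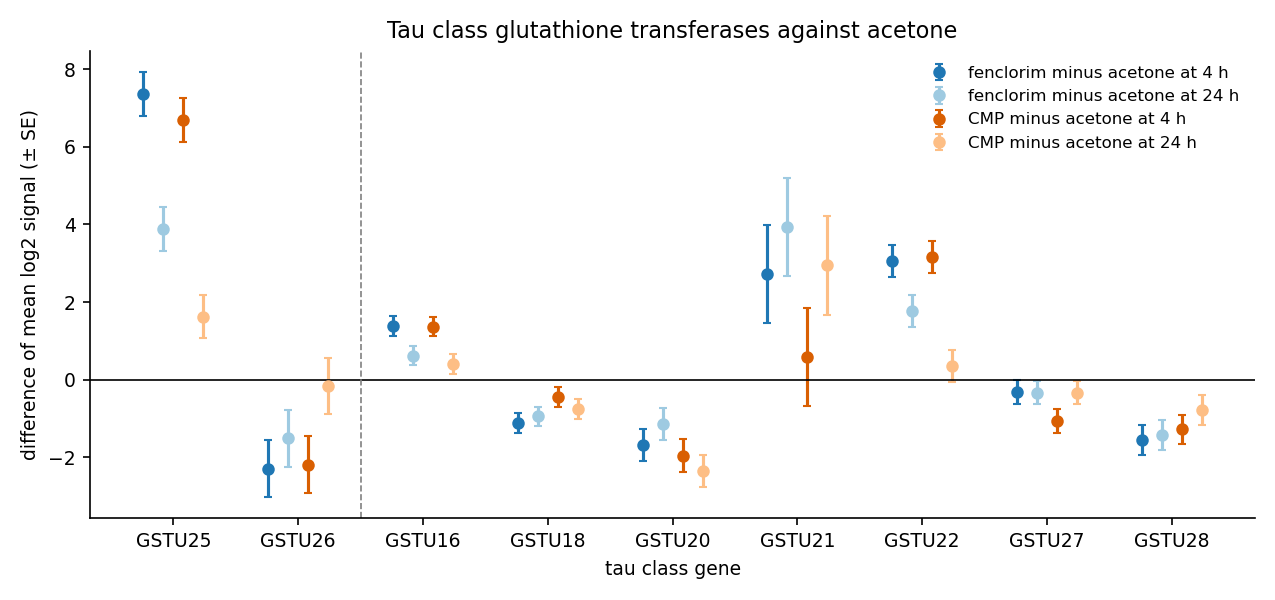
Difference of mean log2 signal from acetone ± SE (vertical axis) for GSTU25 and GSTU26, left of the dashed line, and the 7 other tested tau class genes (horizontal axis) in 4 comparisons of 3 arrays against 3. GSTU25 reaches 7.36, GSTU21 3.93 and GSTU22 3.16, while GSTU26, GSTU18, GSTU20, GSTU27 and GSTU28 lie below 0 in all 4 comparisons.

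Genes that supply glutathione or act on the same class of compounds were described in the same way. Of 14 loci for glutathione supply and handling of conjugates 2 were named and tested. GR1, a glutathione reductase that regenerates glutathione, rose by 1.61 ± 0.23 at 4 h of fenclorim and by 1.07 ± 0.23 at 4 h of CMP (adjusted p = 4.66e-05 and 0.00178). It was higher by 0.65 ± 0.23 and 0.78 ± 0.23 at 24 h. The organellar glutathione reductase GR was at -0.28 ± 0.15 (not past the test) and -0.70 ± 0.15 (adjusted p = 0.00147) at 4 h of fenclorim and CMP. At 24 h GR was at 0.02 ± 0.15 in fenclorim (not past the test) and at -0.58 ± 0.15 in CMP (adjusted p = 0.0043). Of 25 loci of other glutathione transferase classes 1, the lambda class gene GSTL3, was tested, and it passed the test in none of the comparisons with acetone, at -0.57 ± 0.27 and 0.04 ± 0.27 at 4 h.

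Of 12 further loci of the response to electrophiles, a list written with earlier results of these data known, 7 were tested and 7 of 7 were higher than acetone in all 4 comparisons, where 14.4%, 14.2%, 13.8% and 17.3% of all probe sets were (fenclorim at 4 h and 24 h, then CMP). The list is no independent evidence of its direction. Their median was 6.29 and 5.27 at 4 h of fenclorim and CMP, and 4.26 and 2.69 at 24 h. Like GSTU25, AER, which reduces reactive carbonyls, was lower in CMP than in fenclorim at 24 h (-2.87 ± 0.31, adjusted p = 1.66e-05), as was UGT73B4 (-2.16 ± 0.74, adjusted p = 0.0371), a glycosyltransferase. Unlike that of GSTU25, the difference of AER passed the test at 4 h too (-2.01 ± 0.31, adjusted p = 0.000623). UGT73B5, one of the genes most like GSTU25, was lower in CMP at both times (-1.57 ± 0.30, adjusted p = 0.00361 and 0.0012). AT2G04050 and AT2G04070 were higher in CMP than in fenclorim at 4 h, by 1.79 ± 0.33 and 2.54 ± 0.39. Of the 7, 2 were higher and 3 lower in CMP at 4 h, beside 3.56% and 3.77% of all probe sets. At 24 h 0 were higher and 4 lower, beside 17.2% and 13.7%. With quantile normalization 2 were lower at 4 h and 3 at 24 h. None of 8 loci for TGA factors and their partner SCL14, known regulators of such genes, had a named probe set.

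The chromosomal neighbourhood was described from the 10 annotated genes on either side of the pair. Of these 20 genes 6 were named on the array and 5 tested. The tau class gene GSTU24, which lies next to GSTU25, was not analysed here. Against acetone, 0 of the 5 were higher and 1 was lower at 4 h of fenclorim, at 4 h of CMP and at 24 h of CMP, and 0 were higher and 2 lower at 24 h of fenclorim. Over all probe sets 25%, 23.3%, 25.7% and 27.7% were called lower in these comparisons, so 1 of 5 is near the background. FUG1, a translation initiation factor of chloroplasts, was lower in each, at -1.04 ± 0.26 and -1.48 ± 0.26 in fenclorim and -0.95 ± 0.26 and -1.33 ± 0.26 in CMP at 4 h and 24 h. AT1G17230 was lower at 24 h of fenclorim (-1.11 ± 0.30), a call lost after either other scaling. Between the compounds AT1G17230 was higher in CMP at 4 h and 24 h, by 1.11 ± 0.30 and 1.16 ± 0.30, and AT1G17145 at 24 h by 1.14 ± 0.32.

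The nearest tested gene, AT1G17160, lies on the GSTU25 side, with GSTU24 between it and the pair. It was within 0.48 of acetone on the log2 scale in all 4 comparisons and did not pass the test in any. After median centring it was called higher in fenclorim, at 0.82 at 4 h and 0.79 at 24 h. After median centring AT1G17145 and AT1G17230 were called higher at 4 h of CMP, at 1.04 and 0.93, and after quantile normalization at 0.93 and 0.95.

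**Figure D5:**
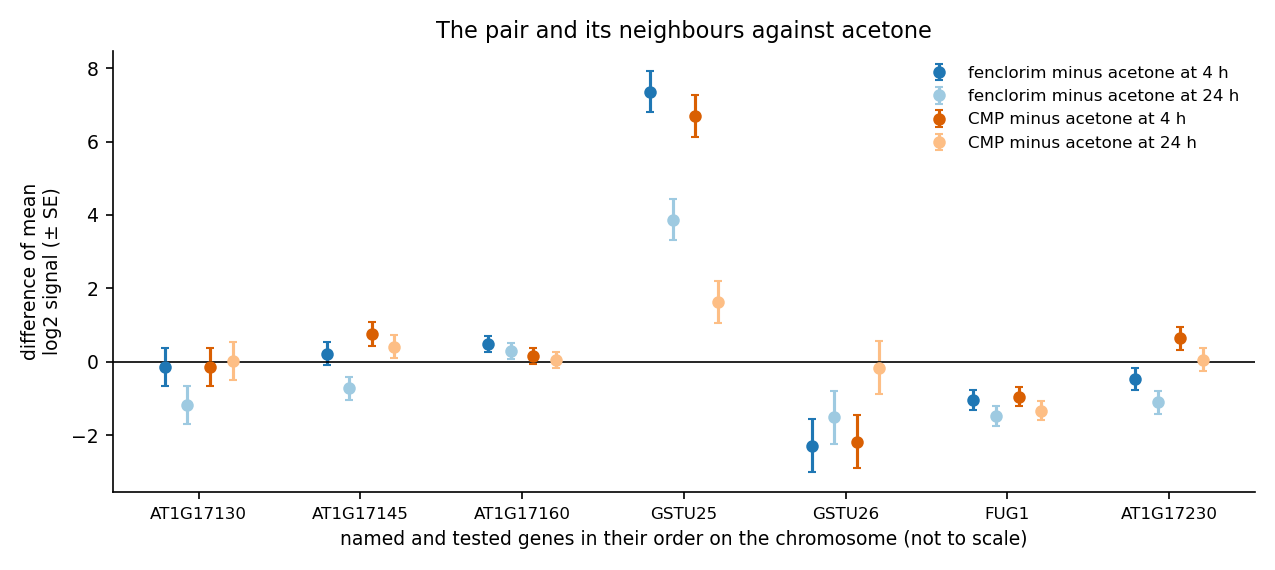
Difference of mean log2 signal from acetone ± SE (vertical axis) for the pair and the 5 tested neighbours in chromosomal order (horizontal axis, not to scale), in 4 comparisons of 3 arrays against 3. The neighbours lie between -1.48 and 0.75, GSTU25 between 1.63 and 7.36 and GSTU26 between -2.29 and -0.16.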

How the data were processed

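Total RNA of 18 root culture samples was hybridised to ATH1 arrays, 1 sample per array. The authors deposited linear signal intensity values made with MAS5 in GCOS, per the submitters' processing notes, with versions and scaling target not given in the sources used here. The mean of each array without the lowest and highest 2% was near 100.01. Groups and replicate numbers came from the labels. After leaving out 64 control probe sets, signals were transformed to log2 and fitted on the 15261 probe sets above the 40th percentile in at least 3 arrays, with 1 mean per group over all 18 arrays, in limma 3.58.1 (R 4.3.3, intensity trend). Benjamini-Hochberg adjustment ran over all tested probe sets, and an adjusted p under 0.05 was called. The fit was tested on simulated data. Names came from the platform annotation, matched to loci of RefSeq assembly TAIR10.1 for 13436 probe sets. 503 probe sets had several genes and 8730 were not listed. A gene with several probe sets is represented by the tested one with the highest mean signal. No coordinates are given, and no detection calls were used.

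The members and gene lists were chosen with earlier results of these data known. Genes named are the pair, the 5 genes most correlated with each, tested neighbours, and for each list up to 3 called members with the largest rise and 3 with the largest fall against acetone, and up to 2 each way between compounds. The root hair genes, GSTU24, GSTL3 and values that passed no test were named beside these after their values were seen. Samples were not paired by replicate number in the main fit. Deviations of same-numbered arrays of different groups correlated at -0.507 to 0.485 (mean -0.04 over 45 pairs), and those of differently numbered arrays at a mean of 0.02. These means run over all groups and cannot exclude pairing between particular groups. Figures were drawn with matplotlib 3.10.9 in Python 3.11.15 with numpy 2.4.6 and pandas 2.3.3.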

Additional observations from a re-analysis of the deposited data

How the results depend on the processing

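Results were recomputed with quantile normalization, median centring, an offset of the 5th percentile (0.416), no filter, a 60th percentile filter, no intensity trend, only the compared groups, a replicate block and each replicate left out. The offset of 16 and leaving out 3 arrays that stood apart were added after seeing the data. The 3 calls of GSTU25 kept direction and call under all of these. With the replicate block no call of the pair changed (CMP minus fenclorim at 24 h, -2.24, adjusted p = 0.0137 for GSTU25). The block gave 3 called probe sets in place of 0 in acetone over time and 433 in place of 750 for the compound by time difference. The cause of the following changes was not tested. GSTU26 turned sign in differences near 0: CMP minus acetone at 24 h to 0.11 with median centring, CMP minus fenclorim at 4 h to -0.061 with the offset of 16, and the compound by time difference to -0.17 without the 3 arrays. It gained a call for fenclorim over time without the 3 arrays (2.05) and for CMP over time with only the compared groups (1.83). The offset of 16 moved GSTU25 against acetone to 5.53, 2.64 and 4.88 (fenclorim 4 h and 24 h, CMP 4 h). With a replicate left out, GSTU26 ranged from -0.77 to 0.34 for CMP minus acetone at 24 h, from -0.40 to 0.97 for CMP minus fenclorim at 4 h and from -0.74 to 0.41 for acetone over time. For fenclorim minus acetone at 24 h it was -0.92 without fenclorim 24 h replicate 2, and -1.01 without acetone 24 h replicate 1.

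Counts of called probe sets moved more. With only the compared groups they were 4041 in place of 6390 for fenclorim minus acetone at 24 h, 2799 in place of 4714 for CMP minus fenclorim at 24 h, 116 in place of 1445 for fenclorim over time and 354 in place of 750 for the compound by time difference. Without the 3 arrays they were 1823 in place of 1118 for CMP minus fenclorim at 4 h, and 7295, 5402 and 3930 for the last 3 comparisons. With a replicate left out they ranged from 587 to 1219 and from 2882 to 6579 for CMP minus fenclorim at 4 h and 24 h, from 0 to 10 in acetone over time, from 590 to 3414 in fenclorim, from 1011 to 1811 in CMP, and from 211 to 3019 for the compound by time difference. Ranked by likeness over the 6 group means, 2 of the 5 genes most like GSTU25 stayed among the first 5, and 0 of those for GSTU26. Median centring shifted all differences from acetone by 0.27 to 0.50 on the log2 scale.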

Other observations

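The spread of GSTU26 between replicates was lowest in CMP at 4 h, with an SD of the log2 signal of 0.09. The 5 genes most like it were also close together there: the SD was 0.13 for AT5G26260, 0.08 for AT1G14960, 0.46 for AT5G47950, 0.38 for AT5G23840 and 0.43 for AT3G22570. This was the lowest of the 6 groups for all but AT3G22570, whose SD was 0.34 in CMP at 24 h. In fenclorim at 4 h the SD was 1.51 for GSTU26, 0.77 for AT5G26260, 2.54 for AT1G14960, 1.85 for AT5G47950, 1.44 for AT5G23840 and 1.21 for AT3G22570. The 5 genes were picked for their likeness to GSTU26 over the same arrays, so a like spread is in part given by that choice. These differences in spread were not tested, and with 3 arrays per group each SD is itself uncertain. For GSTU25 the SD was lowest in fenclorim at 4 h (0.26) and highest in acetone at 4 h (1.34), where its signals were low.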
